A study of Mus musculus with 12 samples.

Results

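The genes described here are the mouse zinc finger genes numbered Zfp600 to Zfp999. They are the protein-coding genes of the RefSeq annotation of GRCm38 whose symbol is Zfp and a number within this range, with or without a letter after it. The rule found 182 genes of 21631 protein-coding genes on the autosomes and X, spread over all 20 of these chromosomes. For each gene, meiotic double-strand break hotspots were located at its ends and inside its body. The hotspots came from whole testis of adult males, in which single-stranded DNA bound by the recombinase DMC1 was sequenced (DMC1-SSDS). The wild type mice were C57BL/6JCrl, and the knockout mice carried the allele Ankrd31 tm1Atot. The labels give 2 samples for each genotype. They do not give the genetic background of the knockout, so strain and genotype cannot be told apart here. The deposited files hold 1 hotspot list for each genotype. Each list was treated as 1 sample, so no value below has a replicate check and no difference between genotypes was tested.

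Zinc finger proteins of the C2H2 type bind DNA through tandem fingers, each of which reads a few bases. Many mouse members of the family join their fingers to a KRAB domain, which recruits TRIM28 and, through it, the histone methyltransferase SETDB1. Many KRAB zinc finger proteins silence retrotransposons, and their genes multiplied by tandem duplication, so that they stand in clusters of related copies. PRDM9, which places most meiotic breaks in mice, is itself a zinc finger protein with a KRAB-like domain. ANKRD31 belongs to the machinery that makes the breaks. When breaks are not directed to PRDM9 sites, they are known to fall on promoters instead.

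The wild type list held 13480 hotspots and the knockout list 22034, with 4376692 and 4203380 reads inside them. Hotspots of the lists that overlapped by at least 1 bp were called shared (11487 pairs), and the remaining ones knockout-only or wild-type-only. A hotspot too weak to be called is missing from its list, so the names describe list membership. Strength is the number of reads in a hotspot minus its background. Its median was 152 over wild type and 105 over knockout hotspots. Relative strength is strength divided by that of the median autosomal shared hotspot of the same list (wild type 182, knockout 151). Hotspots were placed by their centres, at an end if no more than 1 kb from it on either side and inside if between both ends.

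Hotspots at the ends of Zfp600 to Zfp999 genes were mostly in the knockout list, which is also the longer list. A knockout-only hotspot lay at an end of 40 of the 182 genes (22.0%, exact 95% binomial interval 16.2 to 28.7). Of all protein-coding genes 25.5% had one, so the share of these zinc finger genes was near that background. The wild type list had a hotspot at an end of 6 of the 182 genes (3.30%, 1.22 to 7.04), against 1.99% of all protein-coding genes. At 3 of the 182 (1.65%, 0.341 to 4.74), shared hotspots of both lists were at an end, against a background of 1.66%. The count of 40 depends on weak hotspots. With the knockout list reduced to its strongest hotspots, equal in number to the wild type ones, 17 genes had a knockout-only end hotspot, and with a strength of at least 100 in either list 10 had one, against 3 with a wild type one. Shares of all protein-coding genes were not taken at these settings. The comparison with 25.5% therefore holds for the full lists only. Intervals cover counting error over genes, and neighbouring genes are not independent. The 40 genes carried 38 distinct knockout-only hotspots, because 2 pairs of neighbours share a hotspot. For 7 of the 40, the hotspot was also at an end of another protein-coding gene. No hotspot of either list lay at an end of, or inside, 107 of the 182 genes. The matching share of all protein-coding genes was not taken, so this count is a description only.

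These hotspots sat at the start of the gene. The RefSeq promoter table gave the strand of 158 of the 182 genes, and 35 of these carried a knockout-only hotspot at either end. It was the 5′ end in 34 of the 35. The exception was Zfp993 on chromosome 4, whose hotspot (strength 61) lay 890 bp from its 3′ end. Among the 17274 protein-coding genes with a strand, 25.3% had a knockout-only hotspot at the 5′ end and 0.990% at the 3′ end. In the 34 genes the hotspot centre lay a median of 188 bp inside the gene (quartiles 79.5 to 286 bp), and in 27 of them it was downstream of the annotated 5′ end. Over all protein-coding genes the median was 95.5 bp (quartiles -38 to 243 bp).

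**Figure D1:**
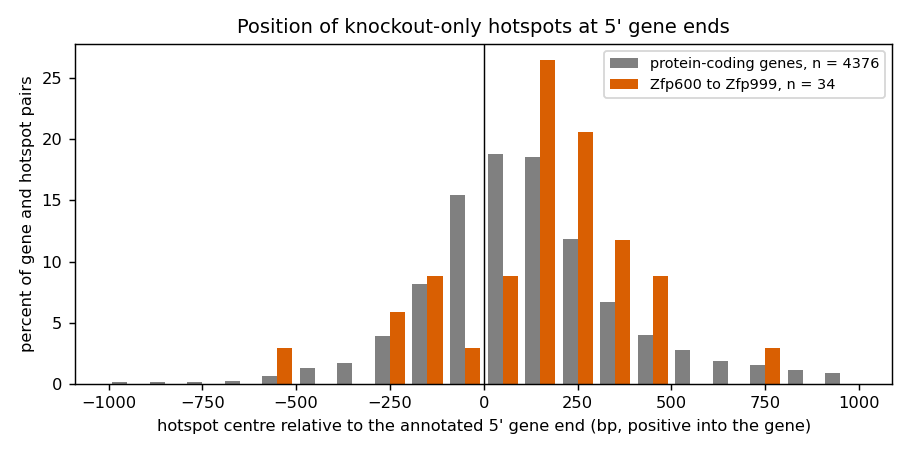
Position of knockout-only hotspots around the annotated 5′ gene end. The x axis gives the distance of the hotspot centre from that end in bp, positive into the gene, and bars give the percent of gene and hotspot pairs in bins of 100 bp for the 34 zinc finger genes (orange) and 4376 protein-coding genes (grey). The zinc finger genes have a median of 188 bp and the protein-coding genes, which include them, one of 95.5 bp.

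The knockout-only hotspots at these ends had a median strength near that of all knockout-only hotspots, but below that of knockout-only hotspots at gene ends. Over the 38 hotspots the median strength was 70.5, with a range from 35 to 474, against a median of 76 (quartiles 54 to 122) over all 10547 knockout-only hotspots. Of the 38, 32 lay below the median of the whole knockout list, which includes the shared hotspots. Knockout-only hotspots at the ends of all protein-coding genes had a median of 94 (quartiles 63 to 154), and those of Zfp1 to Zfp599 genes one of 81.5. The interval of the median over the 38 was 61 to 93. A pair of the 38 hotspots stood well above the rest. That at an end of Zfp654 on chromosome 16 had a strength of 474 (524 reads). It is 3204 bp wide and is also at an end of the neighbouring gene Cggbp1, so it cannot be assigned to either gene. That at the 5′ end of Zfp628 on chromosome 7 had a strength of 430 (440 reads) and was centred 81 bp inside the gene. Zfp628 encodes a cofactor of transcription in spermatids, and its hotspot was at an end of no other protein-coding gene.

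The next hotspots lay close to each other in strength. At Zfp768 it was 126, at Zfp946 112 and at Zfp607b 107, the last also at an end of the kinase gene Map3k10. Zfp618, whose product binds oxidised methylcytosine, had 105. Zfp788 had 104, as had the hotspot at the 5′ ends of Zfp758 and Zfp944, which counts for both genes. Zfp740 had 102 and Zfp609, whose product works with the cohesin loader NIPBL, had 98. Strengths of 96 were found at Zfp619 and Zfp647, 93 at Zfp639 and 90 at Zfp784, the last also at an end of the zinc finger gene Zfp580. Zfp655 had 89, and Zfp706, which encodes a small single-finger protein, had 88. At Zfp606 the strength was 80, and the hotspot at the 5′ ends of Zfp942 and Zfp943 had 77. These hotspots rest on 88 to 144 reads each, and their order is not resolved by such counts.

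Some members of the family with known roles came lower. Zfp644, whose product recruits the G9a and GLP histone methyltransferases, had a knockout-only hotspot of strength 71 at its 5′ end. Zfp804b, a paralogue of the schizophrenia-associated gene Zfp804a, had one of 70. Zfp809, a KRAB zinc finger gene whose product silences murine leukaemia virus in embryonic stem cells, had one of 45 (57 reads), and Zfp871 one of 48. No end hotspot was listed for Zfp703 or Zfp750, the latter a regulator of epidermal differentiation, nor for Zfp687, Zfp830, Zfp819, Zfp640, Zfp979 or Zfp992. The weakest hotspot of the knockout list had a strength of 16, and weaker use of these ends would not be listed.

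The wild type list had end hotspots at 6 members, and 3 of these were at 5′ ends or on a gene without a strand in the table. Zfp711, the X-linked gene mutated in a form of human intellectual disability, showed the largest difference between the lists. The wild type hotspot at its end had a strength of 108 (118 reads, rank 8419). The knockout one had 1141 (1184 reads, rank 185). The log2 ratio of relative strength, knockout over wild type, was 3.67. Zfp711 is the sole member on X, and the table gives no strand for it. Shared end hotspots of the X-linked genes Atrx (133 and 1306) and Rbbp7 (80 and 1402), described below, were also far stronger in the knockout list. The ratio is scaled by autosomal hotspots, and no value was taken over all shared X hotspots. Whether the rise is particular to Zfp711 was thus not tested. At the 5′ end of Zfp616 on chromosome 11 the strengths were 172 and 308 (log2 ratio 1.11). At that of Zfp941 on chromosome 7 they were 250 and 196 (-0.08).

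The other wild type end hotspots were at 3′ ends. A shared hotspot 809 bp beyond the 3′ end of Zfp987 on chromosome 4 reached 90 in wild type. The overlapping knockout hotspot, centred outside the window, reached 124 (log2 ratio 0.73). A wild-type-only hotspot of strength 76 on chromosome 7 was centred 405 bp inside the 3′ end of Zfp790. It lay 724 bp from the 3′ end of Zfp940 and counts for both. Zfp995 on chromosome 17 had a shared hotspot at its 5′ end in the knockout list (78). Its wild type partner (72) was centred 1412 bp inside the gene and so missed the window.

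**Figure D2:**
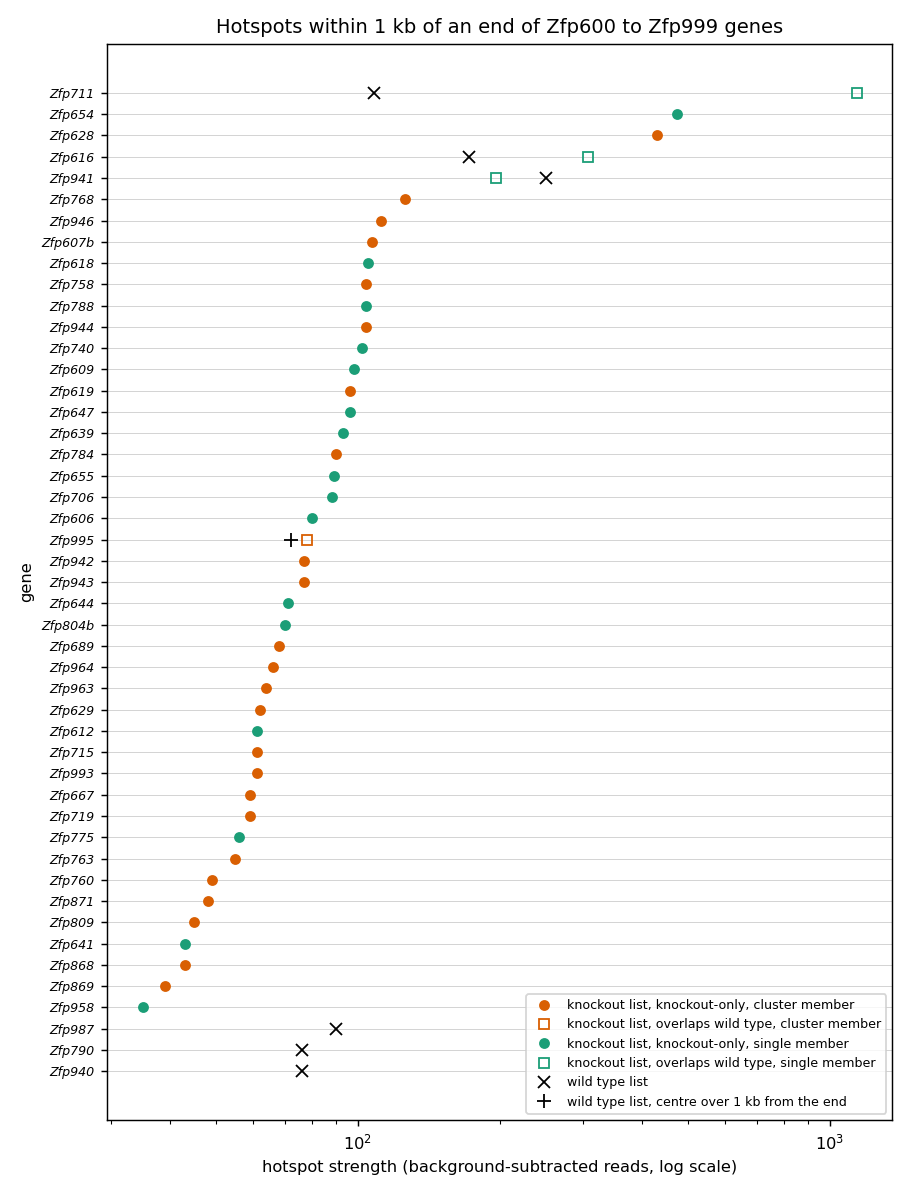
Strength of each hotspot within 1 kb of an end of a Zfp600 to Zfp999 gene, in background-subtracted reads on a log axis, 1 row per gene. Filled circles are knockout-only hotspots, open squares knockout hotspots that overlap a wild type one, crosses the wild type list and the plus sign a wild type hotspot centred just outside the window; orange marks genes in clusters and green single genes. Zfp711 (1141), Zfp654 (474) and Zfp628 (430) stand apart at the top, and the other knockout-only hotspots lie at or under 126.

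Promoter sequences were compared because they were not used to choose the genes. The RefSeq promoter table of GRCm38.p6 gives 300 bp windows, from 250 bp before to 50 bp after a transcription start. For each of the 158 genes with an entry, the start nearest the 5′ gene end was used, and CG dinucleotides were counted. CG reads the same on both strands, and 94.99% of protein-coding genes with an entry have at least 1 in this window. The sequences below are the 250 bases before the start, 5′ to 3′ on the strand of the gene, with each CG in capitals. The first 3 are genes with a knockout-only hotspot over this stretch, and the other 3 come from clusters in which no member carried a knockout-only hotspot at its 5′ end. They were chosen after the values were seen, among genes whose only annotated start is the gene end and whose stretch overlaps no other gene.
Zfp768, chr7:127345315-127345564, minus strand: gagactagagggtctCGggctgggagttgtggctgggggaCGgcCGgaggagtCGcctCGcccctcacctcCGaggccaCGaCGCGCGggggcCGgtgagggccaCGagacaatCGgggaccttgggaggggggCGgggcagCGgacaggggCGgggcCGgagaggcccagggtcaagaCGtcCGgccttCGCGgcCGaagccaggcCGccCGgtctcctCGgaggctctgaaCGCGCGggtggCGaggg
Zfp619, chr7:39517516-39517765, plus strand: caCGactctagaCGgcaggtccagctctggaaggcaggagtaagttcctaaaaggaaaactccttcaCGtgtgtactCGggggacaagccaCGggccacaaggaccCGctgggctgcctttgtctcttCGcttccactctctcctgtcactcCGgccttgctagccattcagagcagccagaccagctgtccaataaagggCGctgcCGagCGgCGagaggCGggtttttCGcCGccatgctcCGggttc
Zfp763, chr17:33033382-33033631, minus strand: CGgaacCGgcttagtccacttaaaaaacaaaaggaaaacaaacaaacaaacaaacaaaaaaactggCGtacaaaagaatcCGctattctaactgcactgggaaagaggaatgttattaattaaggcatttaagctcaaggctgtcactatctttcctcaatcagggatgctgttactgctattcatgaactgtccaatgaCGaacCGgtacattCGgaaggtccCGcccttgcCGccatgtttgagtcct
Zfp979, chr4:147642509-147642758, minus strand: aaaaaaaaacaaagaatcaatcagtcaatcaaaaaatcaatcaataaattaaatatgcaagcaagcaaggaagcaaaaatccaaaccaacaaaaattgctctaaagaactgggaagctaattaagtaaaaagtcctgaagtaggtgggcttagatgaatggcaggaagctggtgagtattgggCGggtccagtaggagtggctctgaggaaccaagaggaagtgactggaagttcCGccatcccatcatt
Zfp967, chr2:176520754-176521003, plus strand: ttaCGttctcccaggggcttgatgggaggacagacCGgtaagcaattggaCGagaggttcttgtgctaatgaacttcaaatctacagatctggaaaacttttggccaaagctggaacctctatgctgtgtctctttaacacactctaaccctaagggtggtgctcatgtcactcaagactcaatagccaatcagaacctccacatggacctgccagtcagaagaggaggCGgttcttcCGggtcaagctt
Zfp971, chr2:178023034-178023283, plus strand: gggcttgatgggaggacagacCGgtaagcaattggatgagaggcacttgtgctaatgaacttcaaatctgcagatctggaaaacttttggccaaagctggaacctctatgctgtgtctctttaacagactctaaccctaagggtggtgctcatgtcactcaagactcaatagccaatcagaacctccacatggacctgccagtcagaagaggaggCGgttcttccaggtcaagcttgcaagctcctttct
In the stretches shown, Zfp768 has 29 CG, Zfp619 16 and Zfp763 9, while Zfp967 has 5 and Zfp979 and Zfp971 have 2 each.

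Genes with a knockout-only hotspot at the 5′ end had more CG in the promoter window. The 34 such genes had a median of 18.5 CG (range 6 to 59) and a median GC content of 57.8%. The 124 others had a median of 9 CG (2 to 51) and 52.0% GC. Among those 124 were Zfp821, Zfp638, Zfp787, Zfp771, Zfp786, Zfp948 and Zfp672. Each had a knockout-only hotspot within 1 kb of an annotated start but over 1 kb from both gene ends. Genes were then split into 3 classes by CG number, at the values that divide all protein-coding genes into classes of about equal size. With 0 to 6 CG, 1 of 41 zinc finger genes had a knockout-only hotspot at the 5′ end (2.44%, 0.0617 to 12.9). With 7 to 21 CG it was 21 of 87 (24.1%, 15.6 to 34.5), and with 22 or more 12 of 30 (40%, 22.7 to 59.4). The share increased from class to class, as it did over all protein-coding genes (3.70%, 28.1% and 46.3%). Zfp618, with 59 CG the richest window of the 158, had a hotspot of strength 105. Zfp804a, with 45 CG, had no end hotspot in either list.

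**Figure D3:**
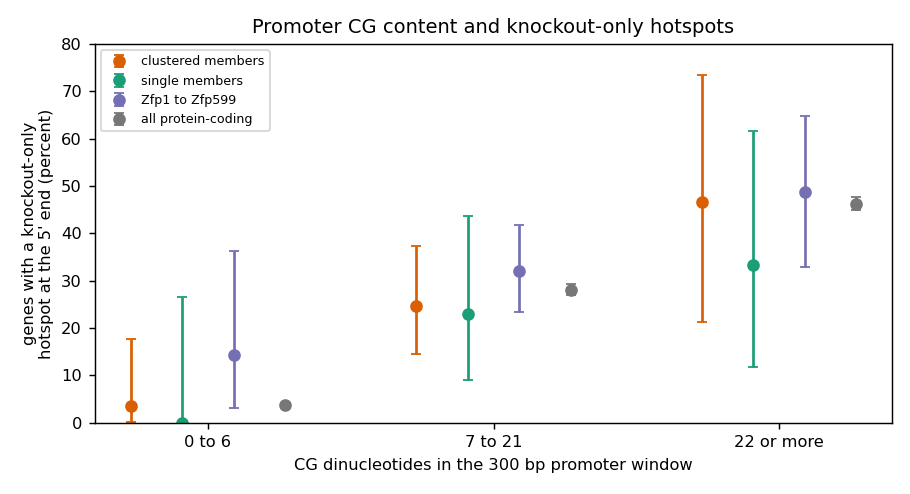
Share of genes with a knockout-only hotspot at the 5′ end (y axis, percent) in 3 classes of CG number in the 300 bp promoter window (x axis). Points are clustered members (orange), single members (green), Zfp1 to Zfp599 genes (purple) and all protein-coding genes (grey), and bars are exact 95% binomial intervals. In each group the share is lowest with 0 to 6 CG and highest with 22 or more.

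The lower-numbered genes of the same family, Zfp1 to Zfp599, were the closest comparison. Of these 212 genes, 71 (33.5%, 27.2 to 40.3) had knockout-only hotspots at their ends and 6 (2.83%) wild type ones. Their promoter windows had a median of 16 CG, against 10 in the 158 Zfp600 to Zfp999 genes. Within CG classes their shares were 14.3%, 32.1% and 48.8%, above those of Zfp600 to Zfp999 genes in every class, with intervals that overlap in each. Whether CG content or sequence copies account for the difference was not tested.

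Genes were next divided into clusters and single genes. A gene was clustered when another Zfp600 to Zfp999 gene lay within 200 kb, which gave 116 genes in 30 clusters, 14 of them pairs, and 66 single genes. The gene just inside this distance, Zfp677, has its neighbour 166551 bp away, and the one just outside, Zfp808, 279078 bp away. At the window for gene ends, the hotspot just inside was that of Zfp993, described above, and the one just outside lay 1203 bp from an end of Zfp704 (strength 105).

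A knockout-only hotspot at an end was about as frequent in both kinds. It was found in 24 of 116 clustered genes (20.7%, 13.7 to 29.2) and in 16 of 66 single genes (24.2%, 14.5 to 36.4). The difference, single minus clustered, was 3.55 percentage points with an interval of -8.46 to 16.8. On 5′ ends alone, over genes with a strand, the order turned, with 23 of 105 clustered (21.9%) and 11 of 53 single genes (20.8%). The hotspots of clustered genes had a median strength of 63 (22 hotspots) and those of single genes one of 88.5 (16 hotspots), with ranges of 39 to 430 and 35 to 474 that overlap. Clustered genes had a median of 10 CG in the promoter window and single genes 14.

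Within the clustered genes the hotspots fell in 12 of the 30 clusters, and the other 18 clusters, with 52 genes, had none. Small clusters, 14 of them pairs, would often have none under an even spread, and evenness was not tested. The largest cluster, 13 genes on chromosome 17 from 21383707 to 22456689, had knockout-only end hotspots at 6 genes. These were Zfp946 (112), the neighbours Zfp944 and Zfp758 with the same hotspot at their 5′ ends (104), the neighbours Zfp942 and Zfp943 likewise (77), and Zfp760 (49). Both pairs point away from each other. The hotspot of the first pair was centred 167 bp inside Zfp758 and that of the second 79 bp inside Zfp942. The promoter windows of Zfp943 and Zfp758 are 94.7% identical, and both had a hotspot. None of the 7 other protein-coding genes in the span had one. Without this cluster the share in clustered genes was 18 of 103 (17.5%).

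The other large clusters differed from it in count. In the 11 genes on chromosome 4 from 146449030 to 147849126 no 5′ end had a knockout-only hotspot, and the hotspot of Zfp993 at its 3′ end was the single call. In the 10 genes on chromosome 13 from 67038594 to 67683512 there were 0. The 7 genes on chromosome 7 from 127242996 to 127615785 had 3, at Zfp768 (126), Zfp689 (68) and Zfp629 (62). Of 6 genes on chromosome 17 from 32765496 to 33033381, 2 had one, Zfp763 (55) and Zfp871 (48). Of 6 on chromosome 7 from 27674661 to 28014210, Zfp607b alone had one (107). The highest share was in 5 genes on chromosome 8 from 69610654 to 69774911, where Zfp964 (66), Zfp963 (64), Zfp868 (43) and Zfp869 (39) had weak hotspots and Zfp866 none. That cluster was picked out after its values were seen. By chromosome, 0 of 15 members on chromosome 2 and 0 of 15 on chromosome 13 had a knockout-only end hotspot, against 21.0% and 20.6% of the protein-coding genes there. On chromosome 11 it was 0 of 9, against 31.3%. Zfp672 there had a knockout-only hotspot (36) 74 bp from an annotated start, which the rule by gene ends does not count. Shares above those of the protein-coding genes were found on chromosomes 7 (12 of 39, 30.8% against 18.1%), 8 (6 of 16, 37.5% against 21.4%) and 17 (8 of 24, 33.3% against 21.1%). So they were on chromosomes 5 (3 of 8, 37.5% against 28.6%), 15 (4 of 7, 57.1% against 26.7%) and 16 (1 of 1). On chromosome 9 the shares were nearly equal (22.2% against 22.1%). These chromosomes were picked by their values.

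**Figure D4:**
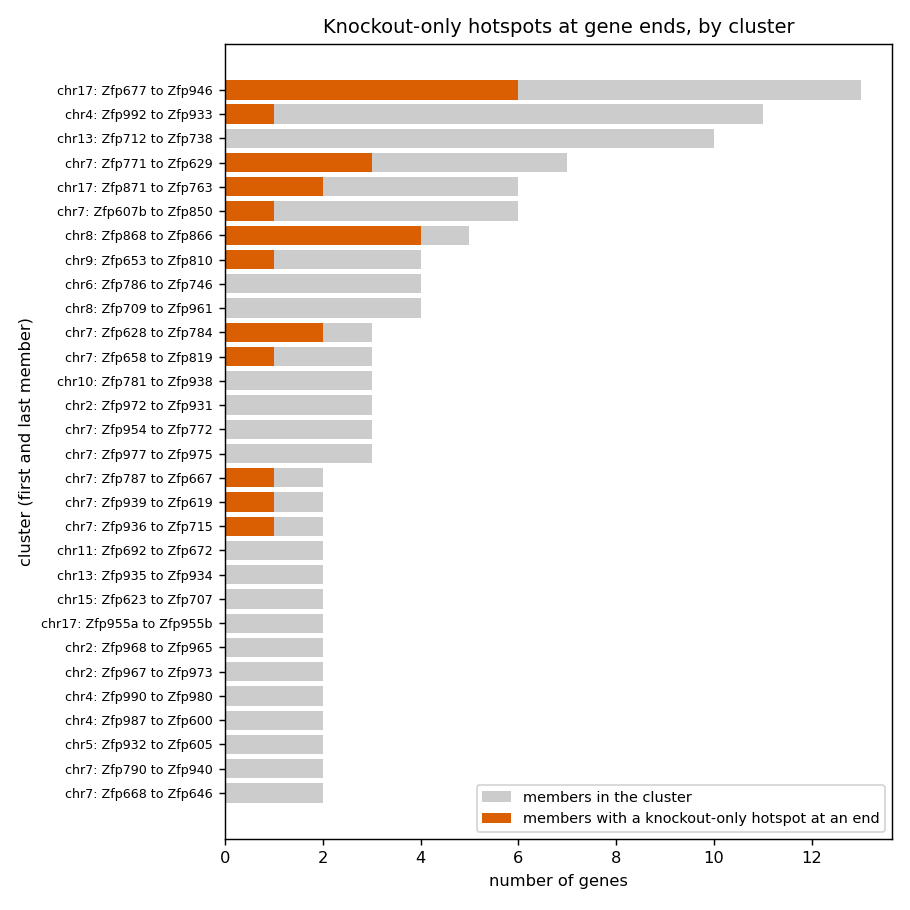
Members of each of the 30 clusters (grey bars, number of genes) and those with a knockout-only hotspot within 1 kb of an end (orange). Clusters are ordered by size and named by chromosome and by their first and last member; the chromosome 17 cluster from Zfp677 to Zfp946 has 6 of 13, and the chromosome 13 cluster from Zfp712 to Zfp738 has 0 of 10.

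Promoter CG and sequence copies varied between the clusters as well. The median promoter window had 5.5 CG in the chromosome 4 cluster (8 genes with an entry), 9 in the chromosome 13 cluster (9 genes) and 3 to 5 in every gene of the 3 clusters on chromosome 2. In the chromosome 17 cluster of 13 it was 11. In the chromosome 8 cluster of 5 it was 9. CG-rich clusters could lack end hotspots too. The chromosome 6 cluster of Zfp786, Zfp956, Zfp777 and Zfp746 had a median of 31 and the chromosome 8 cluster of Zfp709, Zfp882, Zfp617 and Zfp961 one of 21, with 0 of 4 genes called in each. The call is by gene end. Zfp786 had a knockout-only hotspot (54) centred 107 bp from an annotated start and over 1 kb from both gene ends. Of the 158 promoter windows, 19 were at least 90% identical to the window of another protein-coding gene, for 12 of them another gene of Zfp600 to Zfp999. Those of Zfp966 and Zfp967 were 100% identical, those of Zfp968 and Zfp973 99.7%, and those of Zfp979 and Zfp600 94.7%. Of these 19 genes, 2 (10.5%) had a knockout-only hotspot at the 5′ end, Zfp943 and Zfp758, against 32 of the other 139 (23.0%). The copied windows also had fewer CG. Their median was 5 in 14 clustered and 6 in 5 single genes, against 10 and 15.5 in the other clustered and single genes. How the authors treated reads that match several places is not stated in the labels or headers. The parts of copied sequence and of CG content in these counts were not tested.

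Hotspots inside the genes showed a larger contrast between clustered and single genes. The wild type list had a hotspot inside 30 of the 182 genes (16.5%, 11.4 to 22.7), against 19.8% of all protein-coding genes. They were 11 of 116 clustered genes (9.48%, 4.83 to 16.3) and 19 of 66 single genes (28.8%, 18.3 to 41.3). The summed body length was alike, 3.06 Mb and 3.22 Mb, with 11 wild type hotspots in the first and 24 in the second. This is 3.60 and 7.45 hotspots per Mb, and 6.66 over all protein-coding gene bodies. Zfp993 is annotated over 478623 bp, and without it the clustered genes had 4.22 per Mb. Gene length differs between the groups mainly among long genes (upper quartiles 28493 and 41815 bp). In the knockout list, 64 of the 182 genes (35.2%, 28.2 to 42.6) had a hotspot inside, against 34.8% of all protein-coding genes. They were 33 clustered (28.4%) and 31 single genes (47.0%). The densities were 11.1 and 13.3 per Mb. For knockout-only hotspots the order was the other way, with 8.17 per Mb in clustered and 7.14 in single genes. These counts include hotspots within 1 kb of an end. Knockout-only hotspots over 1 kb inside both ends came to 2.29 per Mb of whole gene body in clustered and 2.79 in single genes. That length includes the stretches within 1 kb of an end, of which the clustered genes, being more in number, have more. These differences were not tested, since each genotype is 1 list and genes are not replicates.

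Counted over the whole span of a cluster, wild type hotspots were sparse in the 3 largest clusters. The chromosome 4 cluster of 11 had 0 wild type and 3 knockout hotspots in 1.40 Mb, the chromosome 13 cluster of 10 had 1 and 2 in 0.645 Mb, and the chromosome 17 cluster of 13 had 2 and 10 in 1.07 Mb. The lists as a whole had 5.27 wild type and 8.62 knockout hotspots per Mb between the first and last hotspot of each chromosome. The chromosome 7 clusters of 7 and of 6 genes were at or above the wild type value, with 5.36 and 8.84 wild type hotspots per Mb. Their knockout densities were 29.5 and 5.89 per Mb. The chromosome 17 cluster of 6 genes had 3.73 wild type and 11.2 knockout hotspots per Mb. The cluster on chromosome 6 with Zfp786, Zfp956, Zfp777 and Zfp746 had 4 wild type and 6 knockout hotspots in 0.271 Mb.

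The strongest wild type hotspot inside a member was in Zfp961 on chromosome 8, at 1221 against 364 for its knockout counterpart (log2 ratio of relative strength -1.48). It was centred 1170 bp from an end of the gene in the wild type list. Next came hotspots in Zfp618 on chromosome 4 (680 and 631, log2 ratio 0.16), Zfp661 on chromosome 2 (584 and 176, -1.46) and Zfp956 on chromosome 6 (578 and 194, -1.31). Those in Zfp850 on chromosome 7 (528 and 241, -0.86) and Zfp704 on chromosome 3 (448 and 100, -1.89) followed. In Zfp831 the strengths were 361 and 134 (-1.16), and in Zfp654 358 and 104 (-1.51). In relative strength all of these 8 but that of Zfp618 were lower in the knockout. They were picked by their wild type strength, so their direction is a description only.

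In the knockout list the strongest hotspots inside members were those of Zfp711, Zfp654 and Zfp628 at their ends, Zfp618 (631), Zfp804b (543), Zfp961 (364), Zfp616 at its end (308) and Zfp800 (271). Zfp804b, which spans 575349 bp on chromosome 5, had 2 shared hotspots inside, with 274 and 543 (log2 ratio 1.26) and with 184 in both lists (0.27). Another inside it was knockout-only (61). Zfp618, Zfp654 and Zfp704 also had 3 knockout hotspots each inside. In Zfp704 both shared hotspots were lower in the knockout (448 and 100, 241 and 70), as were both in Zfp654 (358 and 104, 233 and 63), and the remaining one was knockout-only, at or near an end. In Zfp618 the shared hotspots had 680 and 631, and 55 and 90, and the remaining one was knockout-only, at its 5′ end.

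Over all 29 shared hotspots inside the genes, the median strength was 184 for wild type and 134 for knockout. The median log2 ratio of relative strength was -0.36, with quartiles of -1.36 and 0.61. It was -0.78 over the 9 hotspots in clustered genes and 0.04 over the 20 in single genes, a difference that was not tested. The 5606 shared hotspots inside all protein-coding genes had a median log2 ratio of -0.30. Of the 29, 10 (34.5%) were lower by more than 2-fold in the knockout and 5 (17.2%) higher by as much, against 24.8% and 8.31% over all protein-coding genes. The 5 were those of Zfp711, Zfp804b, Zfp827, whose product acts at telomeres, Zfp616 and Zfp800. The interval of this median over the 29 was -1.31 to 0.57, so its sign is not settled. It was -0.24 with a strength of at least 100 required in both lists. The median turned to 0.23 when the knockout list was cut to its strongest hotspots, equal in number to the wild type ones. That cut removes pairs with a weak knockout hotspot and so favours higher ratios by construction. Wild-type-only hotspots lay inside 6 members: Zfp746, which encodes a substrate of the ubiquitin ligase parkin (156), Zfp609 (112), Zfp790 (76), Zfp622, a ribosome biogenesis gene (58), Zfp706 (51) and Zfp839 (30).

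**Figure D5:**
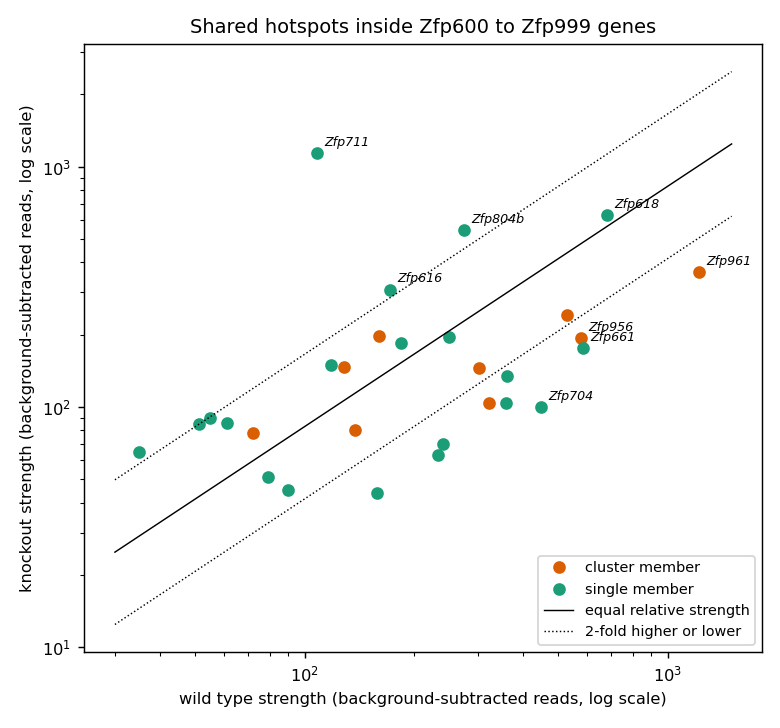
Strength of the 29 shared hotspots inside Zfp600 to Zfp999 genes in the wild type (x axis) and the knockout (y axis), in background-subtracted reads on log axes. Orange points are in clustered and green points in single genes, the solid line marks equal relative strength and the dotted lines a 2-fold difference. Zfp711 (108 and 1141) lies far above the line, and 10 hotspots lie below the lower dotted line.

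Some of the knockout-only hotspots inside the genes were at internal transcription starts. Of 16 such hotspots more than 1 kb from both ends, 7 were centred within 1 kb of a start in the promoter table, and 3 were in genes with no entry there. The 7 were in Zfp821 (266, 154 bp from the start), Zfp638, whose product takes part in silencing unintegrated retroviral DNA (105, 379 bp), Zfp787 (101), Zfp771 (81), Zfp786 (54), Zfp948 (50) and Zfp672 (36). How many of the 2446 such hotspots inside all protein-coding genes lay near a start was not counted, so 7 of 16 has no background. The 16 were in 15 genes (8.24%, against 9.08% of all protein-coding genes). With every annotated start counted, 41 of 158 genes (25.9%, 19.3 to 33.5) had a knockout-only hotspot within 1 kb of a start, against 27.8% of protein-coding genes with an entry. On this measure clustered genes had 26.7% and single genes 24.5%. The knockout-only hotspot of strength 271 in Zfp800 lay 46292 bp from the nearest start in the table, and those in Zfp608 (86 and 61), Zfp804a (45) and Zfp957 (52) were also away from gene ends. Zfp932, a KRAB zinc finger gene that represses endogenous retroviruses, had a shared hotspot inside (128 and 147, log2 ratio 0.47) and none at an end.

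Genes that work with KRAB zinc finger proteins were examined alongside, from a list of 28 genes of co-repressors, chromatin proteins and related factors. The list also holds the zinc finger genes Zfp57, Zkscan17 and Zfp42, which are not co-repressors of this kind. Zfp57 and Zfp42 are counted among the Zfp1 to Zfp599 genes as well. A knockout-only hotspot lay at an end of 10 (35.7%, 18.6 to 55.9), an interval that holds the 25.5% of all protein-coding genes. They included Trim28, the co-repressor that the KRAB domain recruits (255), Atf7ip, which stabilises SETDB1 (255), Hdac2 (321) and Hdac1 (128), both histone deacetylase genes, and Morc2a, a gene of HUSH-dependent silencing (127). Daxx, a histone chaperone gene (112), Mta1 (61), Morc3 (49), Zkscan17 (42) and the heterochromatin protein gene Cbx1 (38) made up the rest. The X-linked genes Atrx and Rbbp7 had shared end hotspots, with strengths of 133 and 1306, and of 80 and 1402, in the wild type and the knockout. No end hotspot was listed for the remaining genes of the list. These were Setdb1, Cbx3, Cbx5, Mphosph8, Tasor, Pphln1, Smarcad1, Dnmt1, Dnmt3a, Dnmt3b, Uhrf1, Chd4, Mta2, Rbbp4, Zfp57 and Zfp42. At an end of Prdm9 on chromosome 17 a knockout-only hotspot of strength 61 was listed.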

How the data were processed

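DMC1-SSDS hotspot lists of adult testis were analysed, 1 for each genotype. The other samples, H3K4me3 and input DNA, were not analysed here. Per the submitters' processing notes, the tools were BWA, Bowtie2, MACS2 and CASAVA, with no version or role, and the build was mm10. Whether samples were pooled is not stated there or in the headers. The deposited read count of a hotspot is a whole number. The deposited strength is a signal equal to reads minus background in 100% of hotspots of both lists, per the file headers and values. The deposited percent strength (share of the list's sum) and the deposited rank, a score by strength, were used only to describe hotspots and to limit a list. Genes came from RefSeq GRCm38.p6, which shares its coordinates with mm10, and strands and starts from the matching promoter table, which had 158 of the 182 genes. Gene coordinates count from 1. Hotspot positions are as deposited, and whether they count from 0 or 1 is not stated. The planned protein features were not analysed here. Hotspots were placed and paired in Python 3.11.15 with pandas 2.3.3, and exact Clopper-Pearson intervals (95%) came from scipy 1.17.1. The interval of a difference of shares combined 95% Wilson intervals (Newcombe). Placing and pairing were tested on simulated data. Promoter identity is 100 minus edits per 100 of the 300 bases. The members and lists were chosen with earlier results of these data known. Genes named with values were those with the 20 strongest knockout-only end hotspots, all with a wild type end hotspot, the 8 with the strongest hotspots inside in each list, those with 3 or more inside, those on X, those with hotspots in the 5 largest clusters, and a list of genes with known roles. Most are thus picked by their values.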

Additional observations from a re-analysis of the deposited data

How the results depend on the processing

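Of the settings tried, 500 bp and 2 kb windows gave 2 and 10 members with a wild type end hotspot in place of 6. Annotated 5′ ends alone, a setting chosen after seeing the data that also drops the 24 members without a strand (Zfp711 among them), gave 2, and turned the difference between single and clustered members to -1.15 percentage points. With hotspots of a strength of at least 100, 10 members had a knockout-only and 3 a wild type end hotspot. The shares were 5.17% of clustered and 6.06% of single members, 25 members had a knockout hotspot inside, and the median end strength was 107. With only the strongest knockout hotspots kept, equal in number to the wild type ones, 17 members had a knockout-only end hotspot (6.90% of clustered, 13.6% of single), 33 had a knockout hotspot inside, the median end strength was 103, and the median log2 ratio inside became 0.23. Both settings leave fewer weak hotspots, by construction, and the second removes them from the knockout list alone. Shares of all protein-coding genes were not taken at either setting. Counting only centres over 1 kb inside both ends, 33 members had a knockout hotspot inside. The other alternatives, among them cluster distances of 100 and 500 kb, a 50% overlap for shared hotspots, leaving out the chromosome 17 cluster of 13 members, and leaving out members with copied promoters (both chosen after seeing the data), moved no result by more than its interval or by over 1.5 times for counts. No paired analysis was possible because the lists hold no values per sample, and for the same reason no sample could be left out.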
